A study of Mus musculus with 4 samples.

Results

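Gene expression in mouse melanocytes carrying a MYC construct was compared with that in their parental cells after 14 days of EGF. The cells were melan-a, an established line of immortal mouse melanocytes, and 4 cultures of it were each measured on 1 Affymetrix mouse genome array. The pair compared here is Hmhi-MYC-TA cells with EGF and Hmhi cells with EGF, so 2 of the 4 arrays. The remaining arrays, Hmhi cells starved without EGF and Hmhi-Miz1 kd cells with EGF, are used only to place the levels. All cultures had been grown with TPA and cholera toxin and were then starved in DMEM with dialyzed serum, to which 3 of them had EGF added at 100 ng/ml. In published work on these cells Hm refers to HERmrk, a growth factor receptor chimera that EGF switches on, but the labels spell out neither Hmhi nor MYC-TA. They also give no promoter for the construct and no number of clones or dishes. The series title names Myc, Miz-1, senescence and cystathionase. The pair of arrays differs by its labels in the MYC-TA construct alone, both cultures having had EGF.

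Members were all probe sets that the platform annotation maps to 1 gene, 34945 of 45101, which represent 18193 genes. A gene's value is the log2 signal of its brightest probe set, by the average of all 4 arrays. A difference is MYC-TA minus Hmhi EGF on the log2 scale, where 1 is 2-fold. A gene entered the comparison if its brighter array reached the array median of 6.66, which 11534 genes did. Each condition had 1 array, so there is no replicate error, no test was run, and each difference compares 2 arrays and not the conditions. The only error available is technical, a pooled SD of 0.25 between probe sets of the same gene. A reading below 6.66 is called dim here, and background then limits the size of a fold.

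MYC is a transcription factor that binds DNA as a pair with MAX, mostly at the E-box CACGTG, and is best known for raising genes of ribosome production, nucleotide synthesis and DNA replication. Proteins of the MXD family, including Mxi1, compete for MAX at the same sites. Through Miz-1, a zinc finger protein encoded by Zbtb17, MYC can instead repress genes such as those of cell cycle inhibitors. In melanocytes, persistent signalling from growth factor receptors can end in senescence, a lasting arrest of division, and MYC is known to oppose it.

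MYC-TA exceeded Hmhi EGF by 2-fold or more for 150 of the 11534 genes (1.3%) and was below it by as much for 190 (1.65%). These shares are the background for every list below. At 1.5-fold the numbers were 842 and 811, and at 4-fold 11 and 19. The median difference of all genes was 0.045, and 55.1% of genes were above 0. Of the 150 higher genes, 31 were dim in Hmhi EGF, and of the 190 lower genes, 34 were dim in MYC-TA. MYC-TA was the highest of the 4 arrays for 123 of the higher genes and the lowest for 117 of the lower ones.

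Control probe sets, which were left out of the comparison, differed between the same arrays. The 27 sets of bacterial poly-A spikes, added to the RNA before labelling, had a median of 0.21 and ran from -0.20 to 0.96. The upper end exceeds the median of every gene list below and many single genes named under 2-fold. Hybridization spikes had a median of -0.09, and the 3 sets of 18S rRNA were at -0.17 to -0.38. The 3′ minus 5′ difference of beta-actin, a sign of RNA quality, was 0.87 in Hmhi EGF and 0.72 in MYC-TA. The part of these in the results was not tested.

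**Figure D1:**
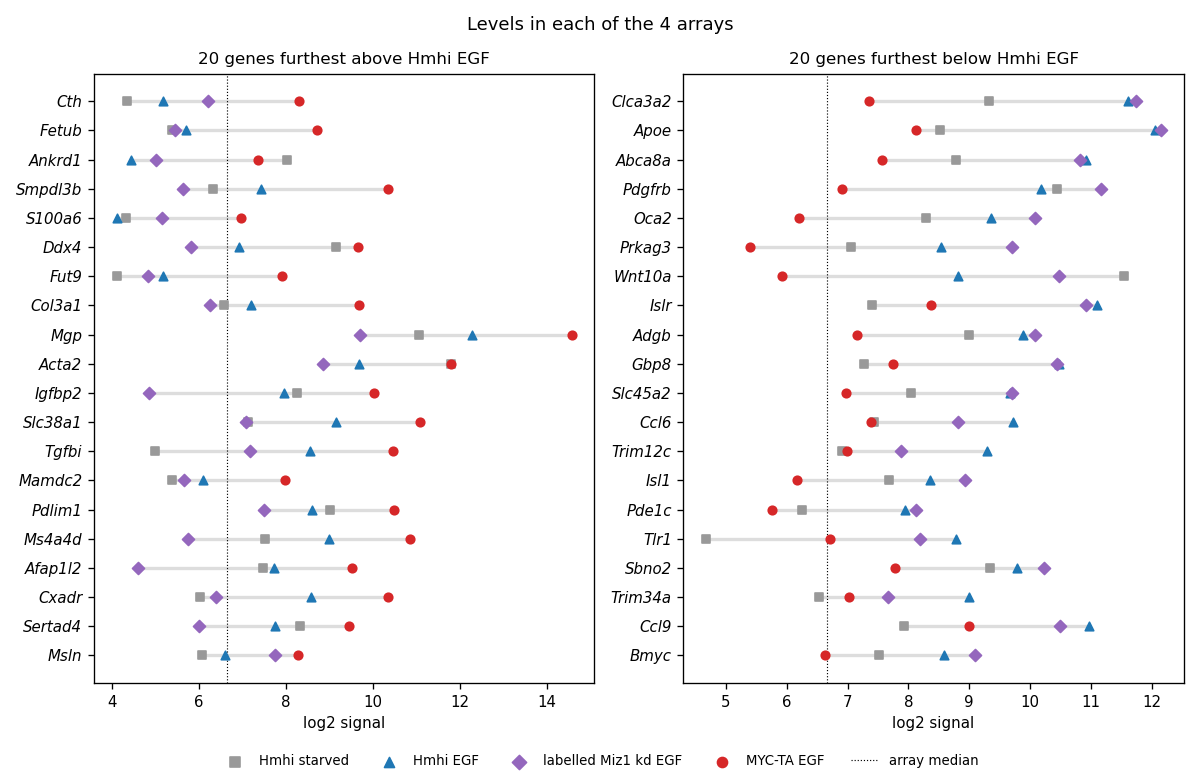
Log2 signal (horizontal axis) on each of the 4 arrays for the 20 chosen genes furthest above Hmhi EGF in MYC-TA and the 20 furthest below it. Genes whose passing probe sets disagree in sign and clone or model symbols were left out of the choice. There is 1 point per array and no error bars because each condition had 1 array. Smpdl3b stands at 10.35 in MYC-TA with the other arrays at or below 7.44, whereas Acta2 in MYC-TA, at 11.80, lies beside starved Hmhi.

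Among the genes of the MYC network, the construct itself could not be checked. The Myc probe set read 10.64 with starvation alone and 10.60 for Hmhi EGF, then 10.79 for the array labelled Miz1 kd and 9.78 for MYC-TA, the lowest. No source says whether it can detect the construct's transcript, so its level checks nothing about the label. Zbtb17 was 8.71 in MYC-TA against 8.72 in Hmhi EGF. The array labelled Miz1 kd had 9.08 and thus no loss of that transcript, so all directions here are those of the arrays as labelled. Mycn, a MYC relative, read 13.5 in Hmhi EGF and 13.7 in MYC-TA on its brightest probe set. That set had 13.3 in starved Hmhi and 7.57 in the array labelled Miz1 kd. Its other sets did not share these levels. One read 6.97 in Hmhi EGF, 7.22 in MYC-TA, 5.56 in starved Hmhi and 6.84 in the array labelled Miz1 kd. The remaining set was dim on every array.

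MYC's partner and 1 of its competitors were higher in MYC-TA. Where 4 levels are given below, they stand in the order starved Hmhi, Hmhi EGF, labelled Miz1 kd, MYC-TA. Mxi1 read 10.04, 9.30, 8.89 and 10.42, so MYC-TA was highest, and its probe sets were higher than in Hmhi EGF by 1.12 and 0.85. Max read 7.96, 7.13, 7.03 and 7.91. Max was thus at its starved level in MYC-TA. Mycl, a MYC relative, was higher by 0.74 from a dim 6.31. On the other side, Mga, a MAX partner that represses, was at -0.88, and Huwe1, a ubiquitin ligase of MYC, was at -0.85. Bmyc, a short MYC relative without the DNA-binding part, read 7.51, 8.59, 9.09 and 6.63 and was the lowest in MYC-TA. The network list does not hold Bmyc. As a whole the list had 1 of 23 members at least 2-fold higher and none lower, with a median of 0.10. That median became -0.014 when each gene was set against the median of its own chromosome. Of 28 genes repressed by MYC or associated with Miz-1, 1 was at least 2-fold lower, Pdgfrb, and the median was -0.17.

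Cth, which encodes cystathionase, the last enzyme in making cysteine from methionine, was the gene furthest above Hmhi EGF. It read 4.34, 5.18, 6.20 and 8.31 across the arrays. Only the MYC-TA reading was not dim, and the difference of 3.12 rests on 1 probe set. Cbs, the enzyme one step before it, did not pass the level filter and was at -0.15. Other enzymes of sulfur and methionine metabolism moved less. Tst, a mitochondrial sulfurtransferase, was higher by 1.06, but at 9.52 it was below its starved level of 9.98. Mtrr, which keeps methionine synthase active, was higher by 0.95. Sqor, which oxidises hydrogen sulfide, was higher by 0.77, and Ahcy, which splits S-adenosylhomocysteine, by 0.67. Suox, which turns sulfite into sulfate, and Csad, which leads to taurine, were at -0.62 and -0.38. Of the 19 members past the filter, 2 were at least 2-fold higher and none lower, 13 were above 0 and the median was 0.37. It was 0.043 under a smallest-difference rule, which keeps only genes with 2 or more passing probe sets and so leaves out Cth. That rule gives each gene the smallest difference of its sets, or 0 where they disagree in sign, so it draws medians toward 0.

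Transporters of amino acids went both ways. Slc38a1, which brings in glutamine and other neutral amino acids, read 7.14, 9.15, 7.09 and 11.10, and its probe sets were higher by 1.95 and 1.05. Slc7a2, a carrier of arginine and lysine, was higher by 1.34, to 8.55, where starved Hmhi had 8.57. Slc1a5, another glutamine carrier, read 9.85, 11.78, 12.60 and 10.59, with its sets at -1.19 and -1.16. The starved and MYC-TA arrays were thus the lower pair for Slc1a5. Slc7a11, the cystine importer, was at -0.15, and Slc3a2, its partner chain, at 0.05. The list held 2 higher and 1 lower gene out of 25, with a median of -0.008. Glutathione and NRF2 genes had a median of -0.06, with Gsto1 the 1 of 41 that was at least 2-fold higher, at 1.19. Gclc, the rate-limiting enzyme of glutathione synthesis, was at -0.57.

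Of 85 ribosome biogenesis genes past the filter, 71 were above 0, against 55.1% of all genes, and 5 (5.88%) were at least 2-fold higher while none was lower. Dkc1, the pseudouridine synthase of small nucleolar particles, read 10.46, 9.88, 10.30 and 11.06. Its partner Nhp2 read 10.56, 10.04, 9.97 and 11.14. Nop58, of the other class of these particles, was higher by 1.10, and the nucleolar proteins Lyar and Nolc1 by 1.11 and 1.12. For each of these 5 genes MYC-TA was the highest array, and starved Hmhi lay between it and Hmhi EGF. Gar1 and Rrs1 were higher by 0.96 and 0.89. Taf1d, a factor of RNA polymerase I, was the lowest of the list at -0.84. The median was 0.38, and 0.35 without genes of chromosome 19, to which Nolc1 belongs.

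The E-box CACGTG, which reads the same on both strands, was looked for in RefSeq promoter windows (GRCm38.p6) of 300 bases, from 250 before to 50 after each gene's start. It was present in 7.15% of all 32851 windows, in 9.86% of those of the genes past the level filter and in 19 of 84 (22.6%) of those of the ribosome biogenesis list. In the windows of genes at least 2-fold higher its share was 13%, and in those of genes at least 2-fold lower 6.04%. Of the list, 6 genes had an E-box in a stretch before the start that could be shown, with differences from -0.05 (Dhx33) to 0.63 (Utp18). The 4 with the largest differences and the lowest, Dhx33, are printed, with the E-box in capitals and 70 bases 5′ to 3′ on the strand of the gene. Utp18 and Imp4 belong to the particle that processes the small subunit RNA, Rpf2 brings 5S RNA to the large subunit, Rrn3 starts RNA polymerase I and Dhx33 is a nucleolar helicase. They lie at chr11:93885767-93885836 on the minus strand, chr10:40246980-40247049 on the minus strand, chr1:34439676-34439745 on the plus strand, chr16:13780619-13780688 on the plus strand and chr11:71004433-71004502 on the minus strand. The differences were 0.63 for Utp18, 0.61 for Rpf2, 0.57 for Imp4 and 0.51 for Rrn3. Nop2, not printed, had 0.20, so genes with the box did not all differ alike.
Utp18: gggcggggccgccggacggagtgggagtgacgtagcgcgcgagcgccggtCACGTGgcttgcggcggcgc
Rpf2: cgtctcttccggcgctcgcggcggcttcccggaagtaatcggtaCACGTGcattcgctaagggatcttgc
Imp4: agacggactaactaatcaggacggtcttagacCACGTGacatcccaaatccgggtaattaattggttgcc
Rrn3: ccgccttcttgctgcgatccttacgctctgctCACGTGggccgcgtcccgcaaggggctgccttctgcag
Dhx33: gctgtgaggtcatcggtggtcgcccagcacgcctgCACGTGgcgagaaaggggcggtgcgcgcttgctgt

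A match in these letters is a description of the sequence and not evidence of binding. The looser E-box CANNTG, which contains CACGTG, was in 72.3% of all windows and in 64.3% of those of the ribosome list.

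Translation factors and tRNA synthetases had a median of 0.33, with 39 of 42 above 0 and only Eef1e1, a subunit of the synthetase complex, at least 2-fold higher, at 1.19. Eif4ebp1, an inhibitor of cap-dependent translation, was higher by 0.95. Mitochondrial import and gene expression had a median of 0.37 over 44 genes, with the import chaperone Timm8a1 higher by 1.18 and Timm10 by 0.84. Under the smallest-difference rule that median was 0.065. Cytoplasmic ribosomal proteins had 41 of 43 above 0 but a median of only 0.19, and none past 2-fold in either direction. Chaperonins and heat shock proteins had 22 of 27 above 0 and a median of 0.27, but none was at least 2-fold higher and 1 was lower, Hspb8 at -2.34.

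Nucleotide, folate and polyamine synthesis had a median of 0.39 over 38 genes, 30 of them above 0. Umps, an enzyme of pyrimidine synthesis, read 8.99, 8.96, 8.65 and 9.99. Psat1, of serine synthesis, was higher by 1.17 and reached 11.90, beside 11.81 in starved Hmhi. No other gene of the list passed 2-fold in either direction. Dck and Dut, which salvage and guard DNA precursors, were higher by 0.99 and 0.91. Odc1, the entry enzyme of polyamine synthesis and a textbook MYC target, was higher by 0.68. Tyms, which makes thymidylate, and Tk1 were at -0.31 and -0.06.

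DNA replication genes had the highest median of the 44 lists. Of 59 genes, 54 were above 0, 4 (6.78%) were at least 2-fold higher and none was lower, with a median of 0.58. Mcm5, a subunit of the replicative helicase, read 9.12, 9.85, 9.33 and 10.95. Mcm3, of the same ring, read 8.58, 9.14, 8.87 and 10.23, and all 5 of its probe sets were higher. Cdc6, which loads the helicase, was higher by 1.02, and Mcm10 by 1.01. For these 4 genes MYC-TA was the highest and starved Hmhi the lowest array. Cdc7, a kinase that fires origins, was at -0.43, and the primase subunit Prim1 at -0.25.

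Replication genes are known targets of E2F factors, whose sites resemble TTTCCCGC and TTTGGCGC. Either motif, on either strand, was in 15 of 60 windows (25%) of the replication list, in 2.96% of those of the genes past the level filter and in 1.56% of all windows. Its share was 8.07% in genes at least 2-fold higher and 1.65% in genes at least 2-fold lower. Segments of 70 bases from such promoters follow, with the motif or its reverse complement in capitals, at chr8:75109329-75109398 (plus), chr11:98907982-98908051 (plus), chrX:93632255-93632324 (minus) and chr1:128359714-128359783 (minus). Pola1, a subunit of the polymerase that starts new strands, was higher by 0.92, and Mcm6 by 0.85. In 7 genes of the list a motif lay wholly before the start and could be shown. Of these, Mcm5, Cdc6, Pola1 and Mcm6 had the largest differences. Orc3, an origin-binding subunit with the same kind of motif, is added from the bottom at -0.05, at chr4:34614945-34615014 (minus).
Mcm5: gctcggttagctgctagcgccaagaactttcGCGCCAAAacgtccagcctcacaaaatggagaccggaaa
Cdc6: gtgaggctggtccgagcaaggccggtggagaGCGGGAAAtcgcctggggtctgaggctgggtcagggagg
Pola1: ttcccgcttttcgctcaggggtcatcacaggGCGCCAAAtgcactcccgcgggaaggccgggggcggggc
Mcm6: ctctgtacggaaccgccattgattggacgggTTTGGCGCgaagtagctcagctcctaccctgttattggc
Orc3: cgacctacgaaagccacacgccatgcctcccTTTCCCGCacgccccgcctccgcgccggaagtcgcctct

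Mitotic genes had 64 of 66 above 0 and a median of 0.49, but 1 at least 2-fold higher. That was Kif11, the motor that separates the spindle poles, which read 7.44, 7.91, 7.11 and 9.11 and lies on chromosome 19. Bub1 and Ndc80, of the spindle checkpoint and the kinetochore, were higher by 0.91 and 0.87. Chromatin and nuclear lamina genes had 30 of 32 above 0 and a median of 0.27. Hells, a chromatin remodeller, and Hmgb2, a DNA-bending protein, were higher by 1.32 and 1.08 on their brightest probe sets. The other sets of Hells were higher by 0.94 and 0.66, and those of Hmgb2 by 1.74 and 1.08. Lmnb1, the lamin whose loss is a known mark of senescent cells, read 8.36, 9.11, 8.69 and 10.14. All 3 genes were highest in MYC-TA. In DNA repair, 1 of 44 genes was at least 2-fold higher, the exonuclease Exo1 at 1.02, and the median was 0.18.

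The list of CDK inhibitors and cell cycle gatekeepers also holds cyclins, CDKs and chromatin genes. Of its 27 genes 1, Lmnb1, was at least 2-fold higher and none was lower, and its mixed make-up means that the median of -0.08 does not describe the inhibitors. Cdkn2a, the source of p16 and ARF, read 7.87, 7.89, 7.59 and 8.72, so it was highest in MYC-TA, below the 2-fold threshold. The array value does not separate its products. The inhibitors Cdkn1a, Cdkn2b and Cdkn1b were at -0.18, -0.25 and -0.34, and Cdkn2c and Cdkn2d at 0.02 and 0.01. Cbx7, a Polycomb protein known to repress Cdkn2a, was at -0.94. Among 28 p53 targets none was past 2-fold in either direction, with a median of -0.06. Of 29 secreted factors of senescent cells, 1 was at least 2-fold higher, Igfbp2, and 3 (10.3%) were lower. These were Lcn2 and the chemokines Ccl9 and Ccl6, at -1.30, -1.97 and -2.33.

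**Figure D2:**
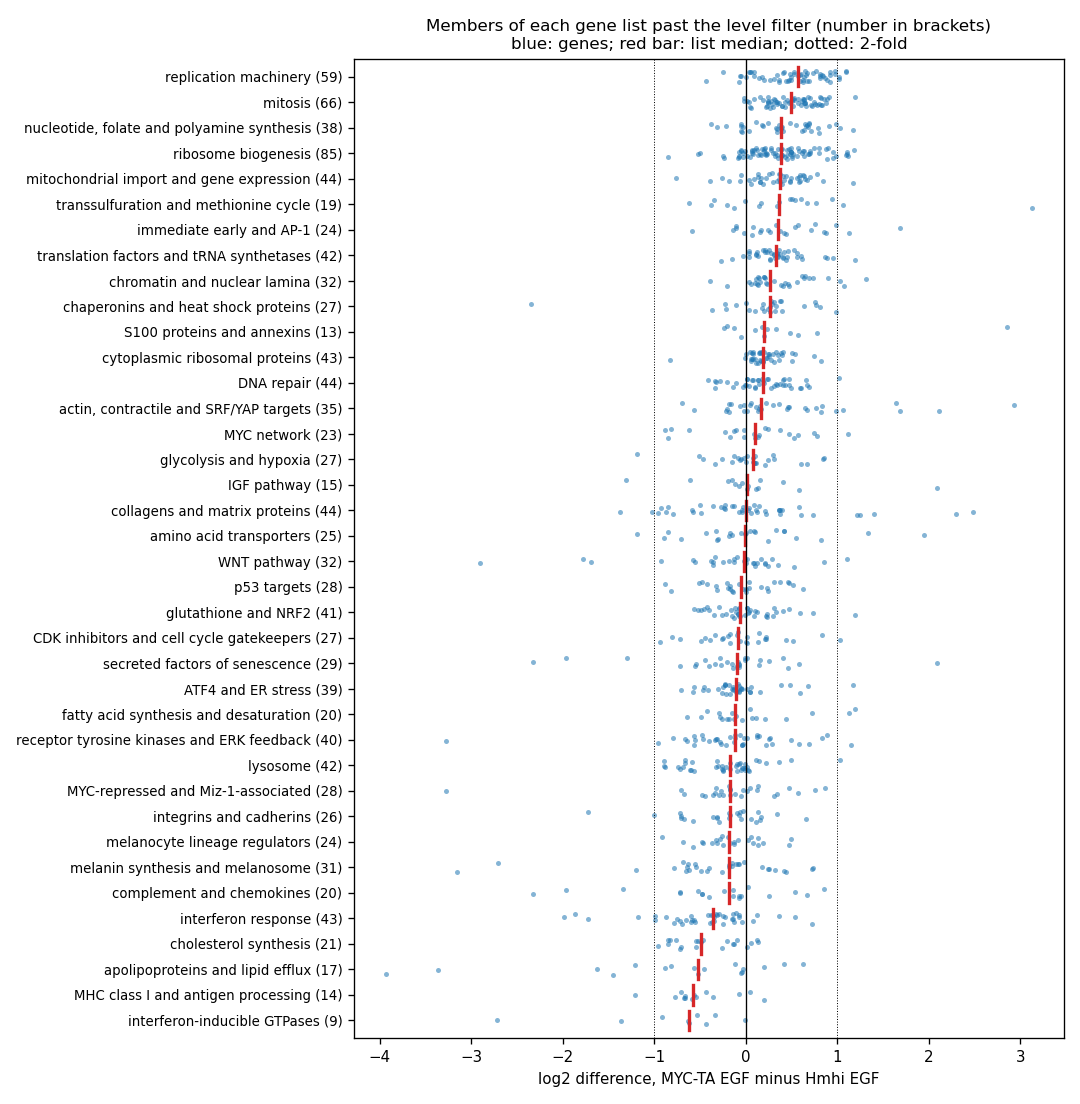
Log2 difference, MYC-TA minus Hmhi EGF (horizontal axis), by gene list (vertical axis, number of members in brackets), with each member past the level filter as a point, its list median as a red bar and 2-fold as dotted lines. The replication list lies at 0.58 and the interferon-inducible GTPases at -0.62.

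Genes of chromosome 19 stood apart from those of the other chromosomes, across functions. Of the 422 chromosome 19 genes past the filter, 85.5% were above 0, with a median difference of 0.42, or 1.34-fold, and a middle 50% from 0.15 to 0.67. They were 3.66% of the genes tested but 34 of the 150 at least 2-fold higher (22.7%), and 1 of the 190 lower. The next medians were 0.23 for chromosome 13 and 0.17 for chromosome 12, and the most negative was -0.12 for chromosome 6. MYC-TA was above all 3 other arrays for 306 chromosome 19 genes (72.5%), against 28.4% of other genes. Their median difference was 0.44 for MYC-TA minus starved Hmhi and 0.73 for MYC-TA minus the array labelled Miz1 kd. With each gene set against its mean over the 4 arrays, the chromosome's median was 0.42 for MYC-TA, -0.30 for the array labelled Miz1 kd, -0.02 for Hmhi EGF and -0.07 for starved Hmhi. Cut in gene order into 3 parts of equal size, the chromosome had medians of 0.30, 0.44 and 0.55 from its start to its end. DNA copy number was not measured, and its part in the result was not tested.

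**Figure D3:**
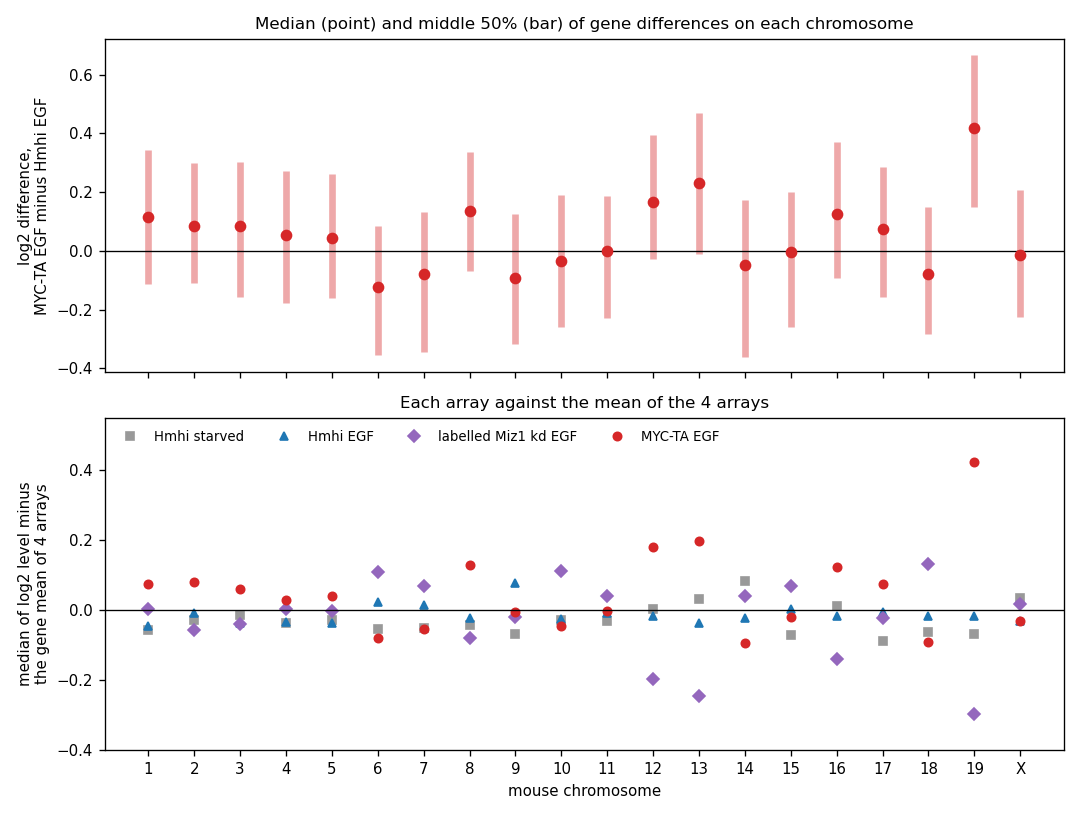
Median log2 difference, MYC-TA minus Hmhi EGF (vertical axis), of the genes past the level filter on each chromosome (horizontal axis), with the middle 50% of genes as a bar, and below it the median of each array's levels minus the gene's mean over the 4 arrays. Chromosome 19 lies at 0.42 with its whole bar above 0, and in the lower plot MYC-TA stands there at 0.42 and the other arrays at -0.02 or lower.

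Genes of many kinds made up the chromosome 19 group. It included Ankrd1, a mechanically induced muscle protein, at 2.93, Acta2, smooth muscle actin, at 2.11, and Pdlim1, an actin linker, at 1.88. It also held the cell surface gene Ms4a4d at 1.85, the actin adaptor Afap1l2 at 1.80, the desaturase Fads2 at 1.20, the motor Kif11 at 1.20 and the proline synthesis enzyme Aldh18a1 at 1.10. Mxi1, Nolc1, Psat1, Hells and Gsto1, named with their groups above, lie there as well. Without chromosome 19 the medians were 0.53 for replication, 0.47 for mitosis, 0.35 for ribosome biogenesis and 0.35 for the sulfur list. Cth is on chromosome 3, and the replication genes past 2-fold are all elsewhere.

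Of 35 contractile genes and other targets of SRF and YAP, 5 (14.3%) passed 2-fold upwards and none downwards, with a median of 0.16, and 2 of the 5 lie on chromosome 19. Acta2 read 11.81, 9.70, 8.86 and 11.80, so that MYC-TA and starved Hmhi read alike. Ankrd1 read 8.04, 4.44, 5.01 and 7.37. Ccn1, a secreted protein and YAP target, read 12.68, 9.60, 9.74 and 11.29, with 4 probe sets higher by 1.44 to 1.82. Cnn1, a calponin of smooth muscle, read 11.72, 7.93, 6.95 and 9.57. In all 4 of these genes the starved array was highest or level with MYC-TA. Srf, the factor itself, read 9.54, 8.96, 8.81 and 10.02, where MYC-TA was highest. Tagln, another smooth muscle gene, went the other way at -0.69. Immediate early genes had 19 of 24 above 0 and a median of 0.35, with Ccn1 and Egr2 at least 2-fold higher. Egr1 and Fos were higher by 0.88 and 0.71.

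SRF binds the CArG box. Its consensus of 10 letters, CCWWWWWWGG with W for A or T, was searched as an exact match on both strands. It was in 5 of 34 windows (14.7%) of the contractile list, in 1.35% of those of genes past the level filter and in 1.63% of all windows. Acta2, Ankrd1, Ccn1 and Cnn1 had windows in the search, but none of these held an exact match. Boxes with a changed letter or outside the window were not searched, so these genes may still have one. Srf was thus the only gene of the list with an exact match in its window that was at least 2-fold higher. The shares were 5.59% for genes at least 2-fold higher and 2.75% for those lower. The promoter segments of Srf at chr17:46556185-46556254 and of the cytoplasmic actin Actg1 at chr11:120348546-120348615, both on the minus strand, show the box in capitals. Actg1 was higher by 0.46. Of the 5 genes of the list with a box that could be shown, Srf and Actg1 had the largest differences, Vcl was at -0.02 and Myl6, a myosin light chain, at -0.57. The Myl6 segment, at chr10:128493020-128493089 on the minus strand, is printed as the other end.
Srf: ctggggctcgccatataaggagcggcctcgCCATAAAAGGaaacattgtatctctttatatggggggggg
Actg1: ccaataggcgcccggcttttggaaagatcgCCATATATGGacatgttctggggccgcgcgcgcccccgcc
Myl6: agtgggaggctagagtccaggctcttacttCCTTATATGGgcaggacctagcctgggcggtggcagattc

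Matrix genes split. Of 44, 5 (11.4%) were at least 2-fold higher and 2 (4.55%) lower, with 22 on each side of 0. Col3a1, a fibrillar collagen, read 6.59, 7.21, 6.25 and 9.69, and Mgp, an inhibitor of calcification, read 11.07, 12.28, 9.70 and 14.58. Both were far above the other arrays in MYC-TA. Fbn2, a microfibril protein, was higher by 1.41 and Dcn, a small proteoglycan, by 1.22, while starved Hmhi already had Dcn at 11.50 against 11.56. Tnc was higher by 1.25, from a dim 5.51 in Hmhi EGF to 6.76. Tgfbi, a secreted adhesion protein outside the list, read 5.0, 8.56, 7.19 and 10.46, with 4 probe sets higher by 1.77 to 2.23. Loxl1, a crosslinking enzyme, and Lamb2, a laminin chain, were at -1.38 and -1.02.

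Other genes high in MYC-TA had no shared function in these lists. Fetub, a protease inhibitor of the cystatin family, read 5.39, 5.71, 5.45 and 8.72. Smpdl3b, a membrane phosphodiesterase, read 6.33, 7.44, 5.64 and 10.35. S100a6, a calcium-binding protein, was dim in the other arrays at 4.34, 4.12 and 5.15 and reached 6.97. Fut9, a fucosyltransferase, went from 5.19 to 7.91. Ddx4, a germ cell helicase, read 9.17, 6.94, 5.82 and 9.66, while only 4 of 38 germline genes on the array passed the filter and the other 3 were between -0.47 and -0.07. Igfbp2, which binds insulin-like growth factors, read 8.26, 7.95, 4.86 and 10.04. Cxadr, a junction protein, read 6.03, 8.57, 6.39 and 10.34. For Fetub, Smpdl3b, Fut9, Igfbp2 and Cxadr the MYC-TA array was at least 2-fold above each of the others.

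Pigment genes held some of the largest negative differences, while no regulator of the lineage passed 2-fold. Oca2, a melanosome anion transporter, read 8.29, 9.36, 10.09 and 6.21, and Slc45a2, a melanosome transporter, read 8.05, 9.67, 9.70 and 6.97, with its sets at -2.70 and -1.98. Both lay below all other arrays in MYC-TA. Myo7a, an unconventional myosin, was at -1.20. These 3 were at least 2-fold lower of 31 melanin and melanosome genes (9.68%), none was higher, and the median was -0.19. Tyrp1, a melanin enzyme, was at -0.02 with 13.05 in MYC-TA, Dct at -0.19 and Mlana at -0.63. Tyr, which starts melanin synthesis, was dim in both arrays, at 5.63 and 4.99. Among 24 lineage regulators none passed 2-fold, with Sox10 at 12.96 and a difference of -0.25, Mitf at 9.65 and -0.26, and Mc1r, the melanocortin receptor, at -0.91. Of the 12 melanocyte markers on the array, 10 passed the filter, with a median of -0.41, Oca2 and Slc45a2 at least 2-fold lower and none higher. Tyr and Trpm1 were dim in both arrays, and Oca2 in MYC-TA. The others, Sox10, Mitf, Mlana, Dct, Tyrp1, Pmel, Gpr143, Kit and Slc45a2, were above the array median in both.

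Of 43 interferon response genes, 38 were below 0, 4 (9.30%) were at least 2-fold lower and none was higher, with a median of -0.35. The helicase Ddx60 read 5.90, 7.99, 7.01 and 6.13. Trim30a, an interferon-induced TRIM protein, read 6.09, 8.21, 6.39 and 6.49, and Trim34a read 6.52, 9.0, 7.67 and 7.02. Each of Ddx60, Trim30a and Trim34a was highest in Hmhi EGF and stood in MYC-TA nearer to starved Hmhi than to Hmhi EGF. The remaining gene past 2-fold, Lgals3bp, read 10.27, 12.96, 12.78 and 11.78, so there MYC-TA was nearer to Hmhi EGF. Trim30a, Trim34a and Trim12c have close relatives whose transcripts their probe sets may share. Stat2, a transducer of interferon signals, was at -0.99, and Ifit2 at 0.72 was the member furthest above 0. All 9 interferon-inducible GTPases past the filter were below 0, with a median of -0.62 and 2 at least 2-fold lower. These were Gbp8, from 10.48 to 7.75, and Iigp1, from 9.23 to 7.87, and both have close relatives too. Class I antigen presentation had 12 of 14 genes below 0 and a median of -0.58. Under the smallest-difference rule that median was -0.139. Nlrc5, the class I transactivator, was 1 of 14 at least 2-fold lower, at -1.21, and read 9.42 beside 9.37 in starved Hmhi. The peptide transporters Tap1 and Tap2 were at -0.67 and -0.68 and the heavy chains H2-K1 and H2-D1 at -0.59 and -0.54. The other passing probe set of Tap1 was at -0.05. B2m, the light chain, was at -0.08, so that the heavy and light chains did not move equally.

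The core of interferon-stimulated response elements, GAAA repeated after 2 free bases, was searched on both strands. It was in 16 of 39 windows (41.0%) of the interferon list and 6 of 7 (85.7%) of the GTPases, against 2.88% of those of genes past the level filter and 3.44% of all windows. In genes at least 2-fold lower its share was 7.14% and in genes at least 2-fold higher 2.48%. The segments show where it lies in 4 promoters of genes below 0 and in that of Ifi203, the 1 gene of the interferon list above 0 with a motif that could be shown, at 0.36. They lie at chr8:61928017-61928086 (plus), chr7:104465194-104465263 (minus), chr10:128270248-128270317 (plus), chr11:48871421-48871490 (minus) and chr1:173942493-173942562 (minus), with the motif or its reverse complement in capitals. Irgm1, an interferon-inducible GTPase, was at -0.53.
Ddx60: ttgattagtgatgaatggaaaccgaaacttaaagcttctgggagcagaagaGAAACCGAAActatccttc
Trim30a: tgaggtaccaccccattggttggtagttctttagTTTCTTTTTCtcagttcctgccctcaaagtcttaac
Stat2: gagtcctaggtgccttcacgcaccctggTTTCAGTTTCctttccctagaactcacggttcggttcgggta
Irgm1: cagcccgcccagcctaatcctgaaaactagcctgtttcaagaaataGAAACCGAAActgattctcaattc
Ifi203: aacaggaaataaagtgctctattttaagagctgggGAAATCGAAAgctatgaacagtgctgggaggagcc

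Several lipid transport genes were far below Hmhi EGF. Apoe, a carrier of lipids between cells, read 8.52, 12.05, 12.16 and 8.13, so starved Hmhi and MYC-TA formed the low pair. Its single probe set gave -3.93. Abca8a, a lipid transporter, read 8.78, 10.92, 10.83 and 7.56, and Lrp1, a receptor for Apoe, read 9.88, 11.50, 12.08 and 9.87. Apoc1 and Abca7 were at -1.45 and -1.22. Of 17 apolipoprotein and efflux genes, 5 (29.4%) were at least 2-fold lower and none was higher, with a median of -0.53. Abca1, the main exporter of cholesterol, was at -0.12. Cholesterol synthesis had 17 of 21 genes below 0 and a median of -0.49, with none past 2-fold. Msmo1 and Nsdhl, of the late steps, were at -0.96 and -0.85. Srebf2, the master regulator, was at -0.84, but its other passing probe set was at -0.03. Hmgcs1, at the start of the pathway, was at 0.01. Under the smallest-difference rule the median of cholesterol synthesis was -0.033. Fatty acid genes had 2 of 20 at least 2-fold higher, Fads2 and the elongase Elovl4 at 1.13, with a median of -0.12.

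Receptors, ligands and adhesion genes included several that were lowest in MYC-TA. Clca3a2, a secreted protein of the chloride channel regulator family, was the gene furthest below Hmhi EGF, at 9.33, 11.62, 11.74 and 7.36, and its probe sets gave -4.27 and -4.81. It has close relatives whose transcripts these sets may share. Pdgfrb, a platelet-derived growth factor receptor, read 10.45, 10.18, 11.16 and 6.91, with sets at -3.27 and -1.22. The MYC-TA level lay below each other array by more than 2-fold on the brighter set. Of 40 receptor tyrosine kinase and ERK feedback genes Pdgfrb was the only one at least 2-fold lower, and Fgfr2, at 1.15, the only one higher. Wnt10a, a WNT ligand, read 11.55, 8.82, 10.49 and 5.92, and Wnt6, another ligand, was at -1.69. Dkk3, a secreted WNT modulator, read 11.75, 11.21, 11.59 and 9.43. These 3 were lower and Lgr5, a receptor for WNT-enhancing R-spondins, was higher by 1.11 of 32 WNT genes. Ncam1, an adhesion molecule, had all 6 passing probe sets between -1.31 and -2.30. Of complement and chemokine genes, 3 of 20 (15%) were at least 2-fold lower, Ccl6, Ccl9 and the complement protease C1s1.

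Transcription factors were also among the genes furthest below the other arrays. Isl1, a factor of neurons and the heart, read 7.68, 8.36, 8.93 and 6.16. Zbtb20 had 9 passing probe sets between -0.72 and -1.48. Bnc2, a zinc finger protein tied to pigmentation, read 9.39, 9.06, 9.77 and 7.34. Each was lowest in MYC-TA.

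Against all 3 other arrays at once, 77 of 11805 genes (0.652%) were at least 2-fold above the nearest in MYC-TA and 50 (0.424%) at least 2-fold below. The higher ones were led by Fetub at 3.01, Smpdl3b at 2.91 and Fut9 at 2.72 above the nearest array. The lower ones were led by Pdgfrb, Wnt10a and Hspb8, a small heat shock protein, at -3.27, -2.90 and -2.34. Of the 77, 18 lie on chromosome 19. The probe sets of Hspb8 disagree, at -2.34, -0.78 and 0.11. Starved Hmhi was at or above MYC-TA for 25 of the 150 higher genes, and at or below it for 72 of the 190 lower genes. These comparisons share the MYC-TA array.

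**Figure D4:**
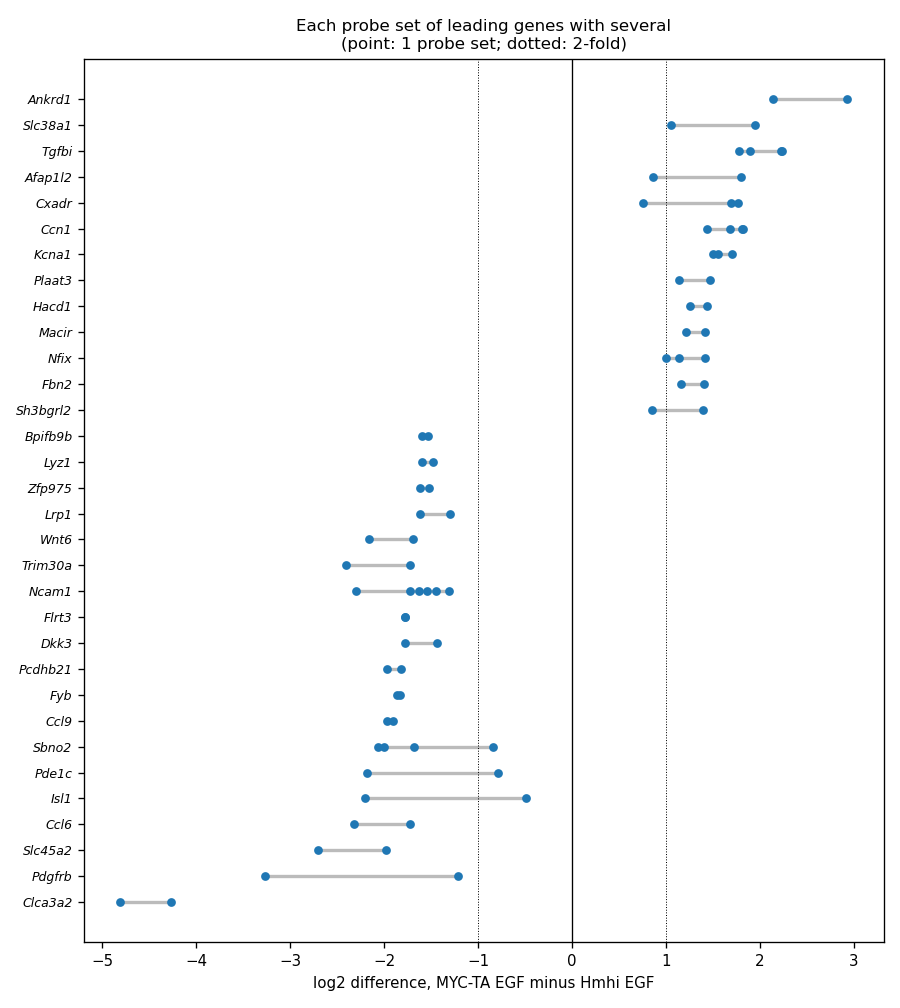
Log2 difference, MYC-TA minus Hmhi EGF (horizontal axis), of every probe set past the level filter for 32 genes with several probe sets, 1 point per set. The genes come from the 40 named as furthest apart in each direction. Those were chosen for passing sets of the same sign, so each gene lies on one side of 0 by choice. The sets of Tgfbi lie between 1.77 and 2.23 and those of Ncam1 between -2.30 and -1.31.

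Where a gene had several passing probe sets, they mostly pointed the same way. All 58 such genes among the higher ones had every set above 0, and 71 of 78 among the lower ones had every set below 0.

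Markers of other cell types were measured beside these groups. Among 14 fibroblast markers on the array 6 passed the filter, of which Col3a1 and Dcn were at least 2-fold higher and Pdgfrb lower. Col1a1, Col1a2, Thy1, Lum, Dpt, Pdpn and Fap, which also mark fibroblasts, were dim in both arrays, at 6.60 or less. The marker levels ran from 4.87 to 10.35 in Hmhi EGF and from 4.64 to 11.56 in MYC-TA. Of 13 macrophage markers 4 passed, with a median of 0.10. Lyz2 was at -1.63, from 12.37 to 10.74, while Fcer1g, Cd68 and Csf1r were at 0.39, 0.22 and -0.02, and Ptprc, Adgre1, Itgam and Tyrobp were dim in both. Lyz2 and Lyz1 are near copies whose probe sets may detect either transcript. Of 16 keratinocyte markers 5 passed and none was past 2-fold. Of 14 Schwann and neural crest markers 12 passed, with Egr2 and the myelin gene Mal higher by 1.12 and 1.01 and Ncam1 lower. The part of other cells in these differences was not tested, and less RNA per cell cannot be told apart from fewer cells of a type.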

How the data were processed

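Total RNA of 4 cultures was hybridised to 1 array each, from 100 ng of RNA per the labels' protocols. The authors' deposited values, which run between 2.94 and 15.1, were taken to be log2 signals. The methods of summarization and normalization are not given in the sources used here. Once sorted, the 4 arrays' values differ by at most 0.004, so a change common to all genes is hidden.

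Probe sets were named from the platform annotation (34945 with 1 symbol, 932 with several, 9160 with none, 64 controls), and Entrez identifiers of 34741 matched RefSeq. Differences were taken on the log2 values as deposited. Named were the 40 genes furthest apart in each direction that passed 2-fold with agreeing sets, the 15 furthest from all other arrays each way, up to 6 members of each of 44 lists, and genes of the title. The lists and members were chosen with earlier results of these data known. The E2F-like, interferon-response and CArG motifs and the chromosome comparison were chosen after the values were seen, as were the printed promoters and any gene outside the rule. The steps were tested on simulated data. Python 3.11.15, pandas 2.3.3, numpy 2.4.6, statsmodels 0.14.6 and matplotlib 3.10.9 were used.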

Additional observations from a re-analysis of the deposited data

Results flagged for a closer look

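Probe sets that the annotation does not name were outside every comparison above. Of 2564 such sets past the level filter, 13 (0.507%) exceeded their Hmhi EGF level 2-fold or more in MYC-TA, the highest by 1.68. They are listed as a signal in data that no comparison uses, but their share is below the 1.34% of sets with 1 symbol. In the other direction, 156 (6.08%) were at least 2-fold lower, against 1.93% of sets with 1 symbol. Their median was -0.18 against Hmhi EGF, -0.08 against starved Hmhi and -0.33 against the array labelled Miz1 kd. The cause was not tested.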

How the results depend on the processing

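No paired analysis was possible because no condition had a further array, and for the same reason none could be left out. Of 3575 values of named genes under 9 other settings and 2 more on chromosomes chosen after seeing the data, 3420 moved by less than the technical SD and 155 by more, and no gene past 2-fold changed sign. Settings that only change the level filter or leave out chromosome 19 cannot alter a gene's difference. A common median or quantile normalization hardly can, because the sorted arrays already match to within 0.004. Many of the 3420 were thus fixed in advance, and their number does not measure stability. The count of 150 higher genes was 92 with a level filter at the 75th percentile and 93 when probe sets were averaged (86 of them among the 150). It was 29 where 2 or more passing sets all had to agree past 2-fold, and 35 were then lower. The count above all 3 other arrays was 43, 48 and 11 under these settings and 34 with every array at or above the median, and that below all 3 was 11 with agreeing sets. A loess correction gave 128 higher and 222 lower genes. Without chromosome 19 there were 116 and 189, and after subtracting chromosome medians 107 and 204, of which 100 and 169 were among the main 150 and 190. The fibroblast median of 0.35 was -0.006 without a filter, -0.125 with every array at or above the median or with plain _at sets, and 0.758 when sets were averaged. The complement and chemokine median was -0.477 with the stricter filter. Under the smallest-difference rule, which leaves fewer genes, the medians were 0.065 for mitochondrial import, 0.043 for transsulfuration, -0.139 for class I presentation and -0.033 for cholesterol synthesis. That rule sets genes with disagreeing sets to 0 and so draws medians toward 0. Precision is limited by having 1 array on each side.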
